A study of Mus musculus with 3 samples.

Results

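p53, its 2 best known negative regulators and 7 of its target genes were examined in mouse embryonic fibroblasts (MEFs) by RNA-Seq of polyadenylated RNA. The 10 genes were chosen by name: Trp53, Mdm2, Mdm4, Cdkn1a, Ccng1, Gadd45a, Sesn2, Bax, Bbc3 and Pmaip1, and each matched 1 of the 46603 Ensembl genes in the count tables. The data were 3 KO-actin libraries, numbered as replicates 1 to 3. KO-actin cells are MEFs without their own β-actin that express β-actin fused to an NLS, a nuclear localization signal, and their genotype is given as Beta-actin KO-NLS. The study used them to ask which changes seen after loss of β-actin are reversed when β-actin returns to the nucleus. All 3 libraries share this single condition, so the values below describe levels in KO-actin cells and hold no comparison between genotypes. The labels do not give the p53 genotype of the line, how the line was established, or whether the libraries came from separate cultures. Any p-value therefore rests only on these libraries, and the spread between them may be technical.

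p53 is a transcription factor that is held at a low level in unstressed cells, mainly because the Mdm2 protein marks it for degradation while its relative Mdm4 blocks its activity. DNA damage and other stresses release p53, which then switches on genes that halt the cell cycle, adjust metabolism or start apoptosis. It also switches on Mdm2, which closes a feedback loop. Because p53 is regulated largely at the protein level, the amount of Trp53 RNA does not give the amount of active protein, and protein was not measured here.

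Library totals ranged from 44383636 to 49932446 counts, and 3 counts, taken as the floor of detection because a count of 0 allows up to that many, equalled 0.0601 to 0.0671 CPM (the usual depth-scaled count, with library sizes adjusted by TMM). Actb, which was deleted and then supplied as the tagged form, reached 1078, 1114 and 1063 CPM in replicates 1 to 3. Gene counts do not separate the tagged copy from the endogenous locus. Of 9 fibroblast markers, 8 were above 3 counts in every library, with a summed level of 12130 to 13126 CPM, while Lum had a mean of 0 CPM, Dcn 0.152 CPM and Thy1 0.836 CPM. Of the markers of other cells, Epcam, Cdh1, Ptprc, Cdh5 and Myh11 were not above 3 counts in every library, and the summed levels ran from 38.3 to 40.3 CPM for 4 epithelial genes, from 10.6 to 12.6 CPM for 3 blood genes, from 1.92 to 2.38 CPM for 3 endothelial genes and from 7303 to 7470 CPM for 4 muscle genes, of which Acta2 alone had 6606 CPM. The part of other cell types in the levels below was not tested, and fewer cells that express a gene cannot be told apart from less of its RNA per cell. Replicate 2 stood apart from the other libraries in a way that followed the GC content of the genes.

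p53 binds DNA at a response element made of adjacent 10-base sites, each with 3 purines, a core of C, then A or T in both middle positions, then G, and 3 pyrimidines. The pattern reads the same on both strands. The promoter table of RefSeq on GRCm38.p6 holds 300 bases for each start site, 250 before it and 50 after it, and 9 of the 10 genes matched it with 13 start sites in all; Pmaip1 did not match. A response element with at most 2 mismatches outside the C and G of each core was present before a start of Cdkn1a and of Ccng1. Of all 32851 promoters in the table, 0.326% held such an element, and of all genes in it 0.392% did. Allowing 3 mismatches added Trp53 and Bbc3, with 1.38% of all promoters and 1.63% of all genes holding one. The matches are shown because p53 acts on its targets through sequences of this kind. Each is written 5′ to 3′ in the direction of its gene with 5 bases on either side, and capitals mark the core of each 10-base site.
Cdkn1a: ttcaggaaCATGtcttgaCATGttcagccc
Ccng1: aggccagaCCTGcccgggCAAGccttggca
Trp53: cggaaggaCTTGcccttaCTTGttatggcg
Bbc3: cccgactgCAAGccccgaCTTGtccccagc

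The Cdkn1a stretch lies at chr17:29090923-29090952 on the plus strand, and its element begins 51 bases before the more upstream of the gene's listed starts, at 29090979. The Ccng1 stretch is at chr11:40755457-40755486 on the minus strand, with its element starting 195 bases before the gene start. Both elements have 1 mismatch. The Trp53 stretch, chr11:69580279-69580308 on the plus strand, has an element with 3 mismatches that begins 75 bases before the start of the p53 gene itself. The Bbc3 stretch, chr7:16309481-16309510 on the plus strand, also has 3 mismatches, and its element begins 97 bases before the first of 3 listed starts. A 10-base site without mismatch, counted whether or not it was part of a full element, was found before a start of 6 of the 9 genes and of 9.55% of all genes in the table. In Trp53, Ccng1 and Cdkn1a it was one side of the element above. Cdkn1a also held such a site outside its element, beginning 73 bases before the same start. Mdm2, Bax and Gadd45a held such a site without a full element in this window.
Mdm2: gataggaaCTTGcctagcga
Bax: atcccaggCAAGctttgaac
Gadd45a: gctgagggCTAGccccatat

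These 3 stretches lie on the minus strand at chr10:117710930-117710949, chr7:45467085-45467104 and chr6:67037433-67037452. Neither a full element nor a 10-base site without mismatch was found in the windows of Mdm4 and Sesn2, which says only that these letters are absent from 300 bases at each start. A match is a description of the sequence and not a measurement of binding.

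All 10 genes were detected well above the floor, with between 404 and 10693 counts in every library. Trp53 (GRCm38, chromosome 11, 69580359 to 69591873, plus strand) reached 214, 216 and 204 CPM in replicates 1 to 3. Its mean, 211 ± 6.58 CPM (SD, n = 3), was the highest of the 10 genes by CPM. Replicates 1 and 2 were nearly level and replicate 3 was the lowest. The longest Trp53 transcript shares 3.04% of its 50-base windows with transcripts of other genes, mostly with the pseudogene Trp53-ps, which had 0 counts in each library.

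Of the regulators, Mdm2, on chromosome 10 from 117688875 to 117710758, encodes the ubiquitin ligase that targets p53 for degradation and is itself a p53 target. Replicates 1 to 3 gave 83.3, 77.4 and 80.8 CPM, averaging 80.5 ± 2.95 CPM (SD, n = 3). Mdm4, on chromosome 1 from 132959484 to 133030561, encodes the relative of Mdm2 that binds the activation domain of p53. Its level was 45.0, 38.0 and 44.3 CPM in replicates 1 to 3, averaging 42.5 ± 3.87 CPM (SD, n = 3). Both regulators were lowest in replicate 2, and the libraries of Mdm2 lay entirely above those of Mdm4. Of the 50-base windows of the longest Mdm4 transcript, 15.5% also occur in the pseudogene Mdm4-ps, which had 12, 10 and 16 counts, so part of the reads of Mdm4 may have been assigned otherwise.

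Among the cell cycle targets, Ccng1, on chromosome 11 from 40748552 to 40755311, encodes cyclin G1 and was the highest. Replicates 1 to 3 gave 113, 106 and 105 CPM, averaging 108 ± 4.26 CPM (SD, n = 3). Cdkn1a, on chromosome 17 from 29090976 to 29100727, encodes the cyclin-dependent kinase inhibitor p21, the classical mediator of p53-dependent arrest. Its level was 53.2, 60.8 and 56.9 CPM in replicates 1 to 3, averaging 56.9 ± 3.82 CPM (SD, n = 3). Every library of Cdkn1a lay below every library of Ccng1. Gadd45a, on chromosome 6 from 67035096 to 67037457, encodes a stress-induced inhibitor of cell cycle progression and was the lowest of these targets, with 17.4, 20.6 and 20.3 CPM in replicates 1 to 3, averaging 19.4 ± 1.80 CPM (SD, n = 3). Replicate 1 was the lowest library for both Cdkn1a and Gadd45a, and the highest for Ccng1. The longest Cdkn1a transcript shares 10.5% of its 50-base windows with AC167363.2 on the opposite strand, which was not analysed here.

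Sesn2, on chromosome 4 from 132492032 to 132510501, encodes sestrin 2, a leucine-binding inhibitor of mTORC1 signalling. Replicates 1 to 3 gave 49.3, 52.0 and 45.3 CPM, averaging 48.9 ± 3.40 CPM (SD, n = 3). By CPM its libraries did not reach those of Cdkn1a. Per kilobase of merged exons the ranges touched, with 14.98 for Sesn2 in replicate 2 and 14.96 for Cdkn1a in replicate 1.

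The death targets spanned more than a 10-fold range. Bax, on chromosome 7 from 45461697 to 45466898, encodes an effector that permeabilizes the mitochondrial outer membrane, and its level was 108, 118 and 114 CPM in replicates 1 to 3, averaging 113 ± 5.44 CPM (SD, n = 3). Bbc3 and Pmaip1 encode the BH3-only proteins Puma and Noxa, which neutralize anti-apoptotic members of the BCL2 family. Pmaip1, on chromosome 18 from 66458533 to 66465565, had 34.3, 28.8 and 34.2 CPM in replicates 1 to 3, averaging 32.4 ± 3.13 CPM (SD, n = 3). Bbc3, on chromosome 7 from 16308393 to 16318205, had 8.60, 10.7 and 9.04 CPM, averaging 9.45 ± 1.12 CPM (SD, n = 3), the lowest of the 10 genes by CPM. Bax was thus above both BH3-only genes in every library. Bbc3 was highest in replicate 2, where Pmaip1 was lowest.

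**Figure D1:**
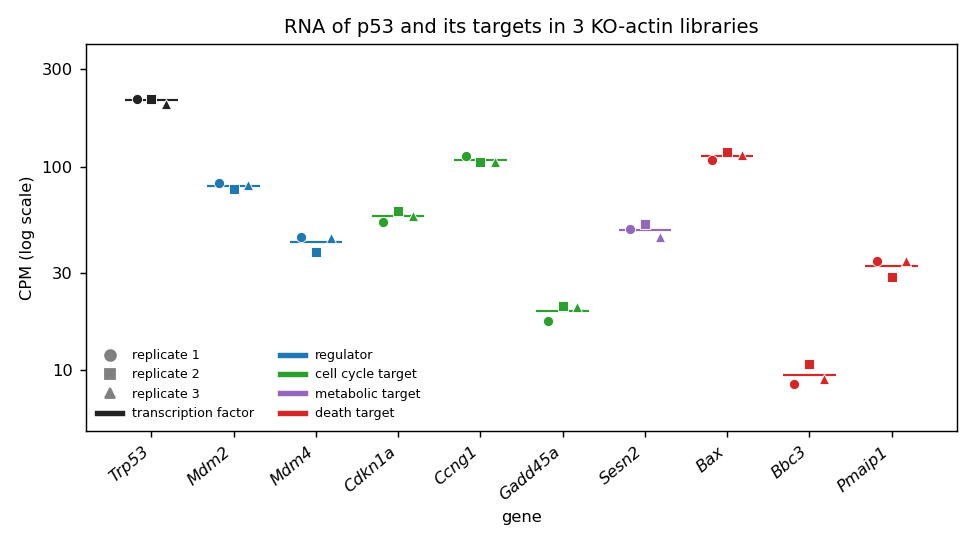
CPM (log axis) of the 10 genes in each of 3 KO-actin libraries, with a symbol for each replicate, a colour for each role and a bar at the mean. Trp53 sits highest at 211 CPM, Bax and Ccng1 follow at 113 and 108 CPM, and Bbc3 is lowest at 9.45 CPM; the libraries of a gene lie close together beside the distances between most genes.

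Levels of different genes were compared per length, as CPM divided by the kilobases of merged exons, within each library. On this scale Trp53 had 52.2 ± 1.63 CPM per kilobase (SD, n = 3) and ranked 1060 among the 15158 genes above 3 counts in every library, within the top 6.99%. Bax, at 71.9 ± 3.45 CPM per kilobase, was the only one of the 10 genes above Trp53 and ranked 703. At the other end Mdm4 had 2.87 ± 0.261 CPM per kilobase and ranked 8953, and Bbc3 had 4.45 ± 0.526 and ranked 7769. Between them lay Ccng1 with 30.7 ± 1.21, Cdkn1a with 16.0 ± 1.08, Mdm2 with 15.8 ± 0.580, Sesn2 with 14.1 ± 0.977, Pmaip1 with 11.9 ± 1.14 and Gadd45a, whose libraries ran from 9.85 to 11.7 CPM per kilobase. Of the 9 neighbouring pairs in this order, Cdkn1a and Mdm2 did not differ beyond their spread, with a log2 difference of 0.02 ± 0.15 (SD, n = 3), nor did Pmaip1 and Gadd45a, at 0.11 ± 0.25. Both pairs overlapped between libraries and changed order in 1 of 3. Mdm2 and Sesn2, at 0.17 ± 0.13, and Sesn2 and Pmaip1, at 0.25 ± 0.23, did not overlap, but their log2 differences were little larger than their spread. These pairs and the remaining 5 kept their order in 3 of 3 libraries.

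Trp53 RNA was above that of its regulators in every library, by 3.30-fold for Mdm2, with 3.23, 3.50 and 3.17-fold in replicates 1 to 3, and by 18.2-fold for Mdm4, with 17.4, 20.8 and 16.8-fold. Among the targets of arrest and metabolism, Trp53 exceeded Ccng1 1.70-fold, Cdkn1a 3.26-fold, Sesn2 3.72-fold and Gadd45a 4.75-fold, each in 3 of 3 libraries. Among the death targets it exceeded Pmaip1 4.41-fold and Bbc3 11.8-fold, while the ratio of Trp53 to Bax was 0.776, 0.710 and 0.696 in replicates 1 to 3. An exact two-sided sign-flip permutation test gave p = 0.25 for each of these 9 ratios, also after Benjamini-Hochberg adjustment, which is the smallest value that 3 libraries allow. Summed per kilobase, the 3 death targets held 84.8 to 90.7 CPM per kilobase and the 3 cell cycle targets 57.0 to 58.9, with Bax making up most of the first sum. Summed as CPM without division by length, the cell cycle targets were the higher, so the order of these sums depended on that division. The sums cover only these targets. In the wider list described below, the highest cell cycle target, Gadd45g, had 148 CPM per kilobase and the highest death target, Bax, 71.9.

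The length assigned to a gene moved several of these ratios by more than 1.5 times. The merged exons of Mdm4 add up to 14798 bases, against 7105 bases for its longest transcript, and the ratio of Trp53 to Mdm4 fell to 10.8-fold when the longest transcript was used for every gene. The longest coding transcript of Trp53 in the GENCODE basic set has 1867 bases, against 4045 for its merged exons, and on this length Trp53 exceeded Ccng1 3.68-fold, Sesn2 8.05-fold, Pmaip1 9.53-fold, Gadd45a 7.13-fold and Bbc3 21.8-fold. Bax stayed above Trp53 under each of the 3 lengths, with a ratio of Trp53 to Bax of 0.727, 0.626 and 0.866, but Trp53 had more counts than Bax, 1.87-fold, before any division by length. Mdm4 took the place above Bbc3, and Gadd45a the place above Sesn2, under both lengths taken from a single transcript. Which transcripts these cells use cannot be read from gene counts.

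**Figure D2:**
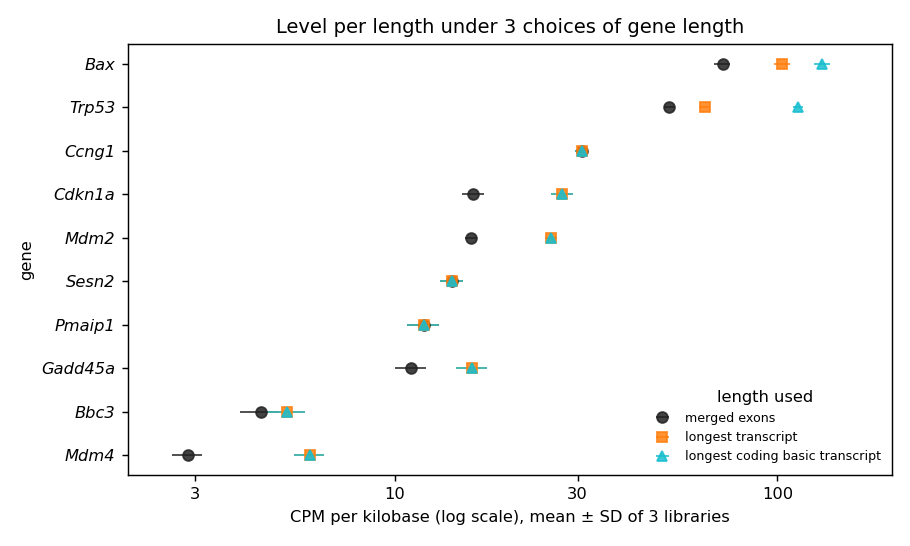
Mean CPM per kilobase (log axis) ± SD over 3 libraries for each of the 10 genes, computed with the merged exons, the longest transcript or the longest coding transcript of the GENCODE basic set. Bax and Trp53 are at the top under every length, whereas Mdm4 moves from 2.87 to 5.98 CPM per kilobase and passes Bbc3.

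The genes of the pair Mdm2 and Mdm4 differed 5.54-fold ± 0.339 (SD, n = 3) per kilobase of merged exons and 4.30-fold with the longest transcripts. Within the death targets, Bax exceeded Bbc3 16.2-fold ± 1.18 and Pmaip1 6.11-fold ± 0.889, and Pmaip1 exceeded Bbc3 2.71-fold ± 0.543. Pmaip1 was above Bbc3 by 3.10-fold in replicate 1 and 2.94-fold in replicate 3 but by 2.09-fold in replicate 2. Ccng1 exceeded Cdkn1a 1.93-fold ± 0.201 on merged exons, but 1.13-fold with the longest transcripts. Ccng1 was the higher under each length, and the size of the gap depended on the length given to Cdkn1a.

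The next question was whether the 10 genes differed between the libraries by more than counting error. A chi-square comparison with the counts that library size alone would give, adjusted over all 13814 genes that had 10 counts or more per library, called 10 of 10 genes, beside 43.9% of all genes tested. When testing was restricted to genes with 100 counts or more per library, which includes the 10 genes, the share was 52.0%. The adjusted p (Benjamini-Hochberg) ranged from 3.19e-07 for Mdm4 to 0.0139 for Mdm2. The differences were small in size: the highest library exceeded the lowest by 1.06-fold for Trp53 and by at most 1.25-fold, for Bbc3. The coefficient of variation had a median of 6.83% over the 10 genes and ran from 3.12% for Trp53 to 11.8% for Bbc3, against a median of 4.63% over the genes with 100 counts or more per library. Counting error alone would give 0.993% for Trp53 and 4.69% for Bbc3. These libraries belong to one condition, so the calls describe the libraries and not an effect of β-actin.

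The direction in which replicate 2 departed from the others followed base composition. The 6 genes with the highest GC content in their longest transcript, from Gadd45a at 49.8% upward, were higher in replicate 2 than in the mean of the others, and the 4 genes from Mdm2 at 46.2% downward were lower. This split was chosen after the values were seen. Bbc3, with 65.2% GC, was higher by 0.28 on the log2 scale and Sesn2, with 58.7%, by 0.14, whereas Pmaip1, with 42.1%, had a log2 difference of -0.25 and Mdm4, with 43.3%, of -0.23. Across the 10 genes the Spearman correlation of this difference with GC content was 0.82 and Pearson's r 0.83. Across 64 tested genes of the wider pathway list described below, the Spearman correlation was 0.55 and Pearson's r 0.61. Across all 13770 tested genes with a GC value, these were 0.49 and 0.35. Genes share their libraries and are not independent replicates. In the lowest of 10 bins of GC content the median difference over all genes was -0.14, and in the highest it was 0.14.

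**Figure D3:**
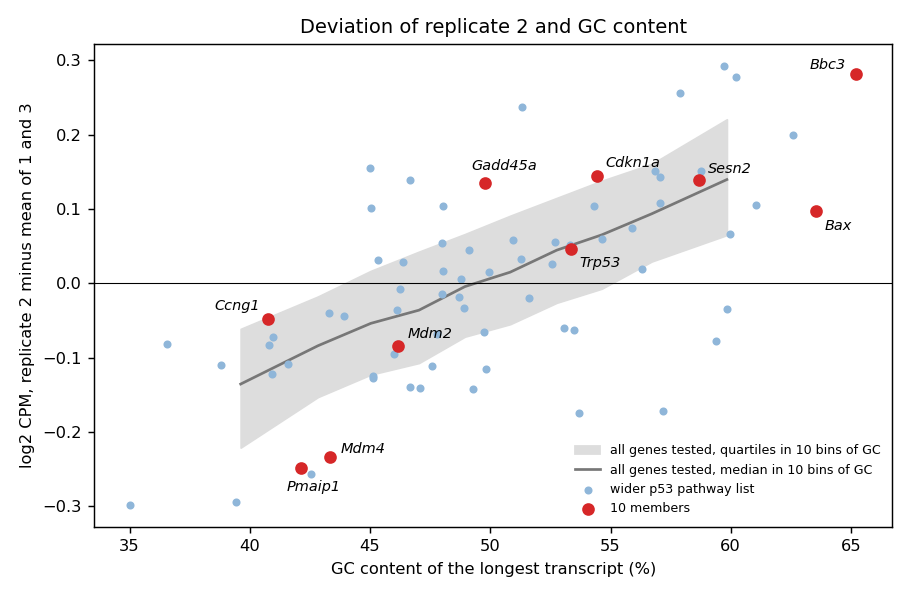
Difference in log2 CPM between replicate 2 and the mean of replicates 1 and 3 against the GC content of the longest transcript, for the 10 genes (red), the wider pathway list (blue) and all genes tested (grey line and band, median and quartiles in 10 bins). Pmaip1 and Mdm4 lie at -0.25 and -0.23 on the left and Bbc3 at 0.28 on the right, in the same direction as the median of all genes at low and high GC content.

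When each library was rescaled within 50 bins of GC content, 7 of the 10 genes still varied beyond counting error, beside 29.9% of all genes. Mdm2, Sesn2 and Bbc3 were no longer called, with adjusted p (chi-square, Benjamini-Hochberg) of 0.295, 0.152 and 0.517. The log2 difference of Bbc3 in replicate 2 shrank from 0.28 to 0.083, while that of Pmaip1 was still -0.17 and that of Mdm4 -0.15. Gadd45a, at 0.14, did not shrink. Bax turned from 0.097 to -0.10 and Ccng1 from -0.048 to 0.066. Leaving out replicate 2 left 5 of 10 genes called, beside 12.5% of all genes: Trp53, Ccng1, Gadd45a, Sesn2 and Bax. Without replicate 1 the number was 6, beside 33.1%, with Mdm2, Ccng1, Gadd45a and Bax no longer called, and without replicate 3 it was 8, beside 34.0%, with Trp53 and Sesn2 lost. Trp53 was thus not called where replicate 3 was left out, and its libraries differed by 1.06-fold in all.

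The genes around p53 were then described with a list of 69 further pathway genes in 8 groups, of which 64 were above 3 counts in every library. The relatives of p53 were close to the floor: Trp63 had 1, 3 and 2 counts and Trp73 1, 0 and 1, so that neither was detectable at this depth and Trp53 was the only gene of its family with clear expression. Of the wider list, 32 of the 64 genes tested varied beyond counting error, beside 43.9% of all genes; 24 did after correction for GC content, beside 29.9%, and 13 without replicate 2, beside 12.5%.

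Cdkn2a, whose p19Arf product binds Mdm2 and frees p53, was the highest of the wider list per kilobase. Replicates 1 to 3 gave 382, 474 and 400 CPM, averaging 419 ± 48.8 CPM (SD, n = 3). Per kilobase of exon it exceeded Trp53 6.84-fold ± 0.719 (SD, n = 3) and Mdm2 22.6-fold ± 3.48. Gene counts do not separate the Arf transcript from that of p16Ink4a, which starts at another promoter of the same locus. Replicate 2 was the highest library, and the gene has a GC content of 60.2%. Cdkn2a varied between libraries also after correction for GC content, with an adjusted p of 3.54e-35 (chi-square, Benjamini-Hochberg).

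All 13 upstream kinases and modifiers were above the floor. Usp7, the deubiquitinase that stabilizes both Mdm2 and p53, was the highest per kilobase, at 24.8 ± 1.25 CPM per kilobase (SD, n = 3), and Prkdc, the catalytic subunit of DNA-dependent protein kinase, the lowest at 1.39 ± 0.0700. Atm, the kinase that signals double-strand breaks, had 5.38 ± 0.545 CPM per kilobase. Of these 13 genes 6 varied between libraries, a share near the 43.9% of all genes. Without replicate 2, 3 did, beside 12.5% of all genes: Atr, Cop1 and Trp53bp1. Atm had 57.7, 49.2 and 59.9 CPM in replicates 1 to 3 and was called with all libraries, but not without replicate 2, where its adjusted p (chi-square, Benjamini-Hochberg) was 0.390.

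The 3 Gadd45 paralogs differed widely in level. Gadd45g had 148 ± 3.88 and Gadd45b 55.4 ± 3.42 CPM per kilobase (SD, n = 3), so that Gadd45a, the paralog best known as a p53 target, was the lowest. Gadd45g exceeded Gadd45a 13.5-fold ± 1.21 and Gadd45b exceeded it 5.05-fold ± 0.379. The polo-like kinase gene Plk2 was also high, at 96.8 ± 0.636 CPM per kilobase, and did not vary beyond counting error. At the other end Sfn, which encodes 14-3-3σ, had 10, 21 and 27 counts, Rprm 7, 6 and 2 and Ptprv 1, 1 and 5. Part of the Gadd45a gene, 19.1% of its exonic length, is overlapped on the opposite strand by E230016M11Rik, which had 47, 22 and 26 counts, and whether counting used the strand is not given in the sources used here.

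Of the 14 targets in metabolism and repair all were above the floor. Phlda3, an inhibitor of Akt, was the highest at 66.5 ± 5.46 CPM per kilobase (SD, n = 3) and Sesn3 the lowest at 0.545 ± 0.0357. Among the sestrins Sesn2 exceeded Sesn1 1.86-fold ± 0.196 and Sesn3 25.8-fold ± 0.681, or 15.4-fold for Sesn3 with the longest transcripts. Phlda3 was highest in replicate 2, at 113 CPM against 97.6 and 99.9 in the others, and its call was lost after correction for GC content, with an adjusted p (chi-square, Benjamini-Hochberg) of 0.351.

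All 13 death targets were above the floor, and Bax was the highest of them, followed by Perp, a membrane protein of desmosomes, at 63.6 ± 2.92 CPM per kilobase (SD, n = 3). The lowest was Eda2r, which encodes a receptor of the TNF receptor family, with libraries from 1.01 to 1.12 CPM per kilobase. The receptor gene Fas had 12.8 ± 0.417 CPM per kilobase and Apaf1, the core of the apoptosome, 5.40 ± 0.209. Part of Bax, 12.2% of its exonic length, is overlapped by Gm45808, which was not analysed here. In the BCL2 family, 11 of 12 genes were above the floor, and Hrk, with 0, 0 and 3 counts, was not. The Bok gene of this family had 66.1 ± 2.84 CPM per kilobase. Bak1, which like Bax encodes a pore-forming effector, had 55.0 ± 3.47. Bax exceeded it 1.31-fold ± 0.0765, or 1.86-fold with the longest transcripts, and 25.5% of the exonic length of Bak1 overlaps Ggnbp1. Of the genes for anti-apoptotic proteins Mcl1 was the highest, at 90.6 ± 1.34 CPM per kilobase, and Bcl2 the lowest, at 2.07 ± 0.149. The lowest gene of the family above the floor was Bmf, for a BH3-only protein, at 0.515 ± 0.0851. Mcl1 exceeded Bax 1.26-fold ± 0.0792 on merged exons, but the ratio was 0.882 with the longest transcripts, so their order is not settled. Bax exceeded Bcl2 34.8-fold ± 2.05 and Mcl1 exceeded Pmaip1, whose product binds the Mcl1 protein, 7.67-fold ± 0.726.

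**Figure D4:**
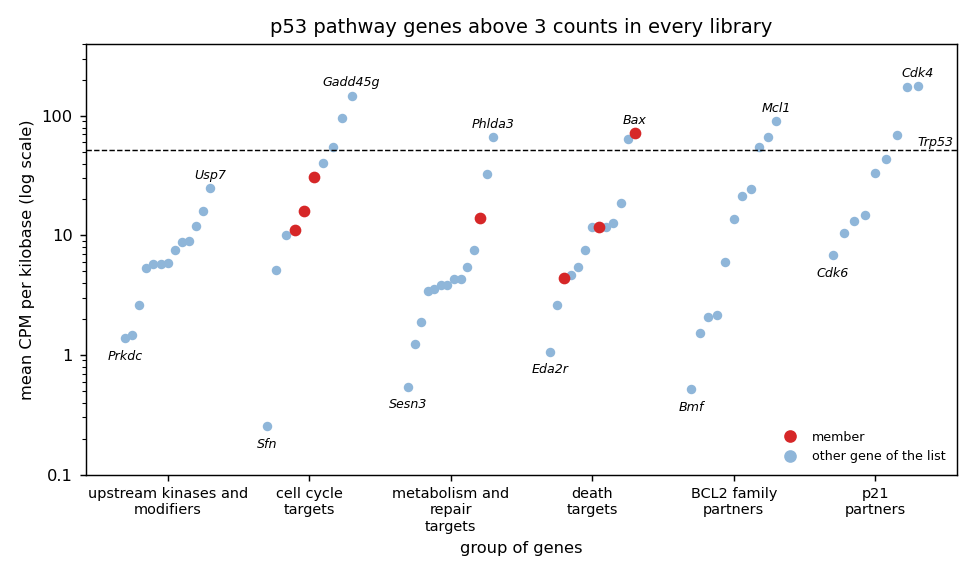
Mean CPM per kilobase (log axis) over 3 libraries of the p53 pathway genes above 3 counts in every library, by group. The target genes among the 10 are in red and the other genes in blue. The highest and lowest gene of each group are named, and a dashed line marks Trp53. Gadd45g, Plk2, Gadd45b, Phlda3, Bax, Perp, Mcl1, Bok, Bak1, Cdk4, Pcna and Ccna2 lie above Trp53 at 52.2 CPM per kilobase. Cdkn2a, at 357, is not drawn, and neither are Mdm2 and Mdm4.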

How the data were processed

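The values deposited by the authors are counts: whole reads assigned to each Ensembl gene, 1 table a library, not normalized. The submitters' processing notes name Trimmomatic, FastQC, HISAT2, HTSeq and GRCm38 (mm10); versions, annotation release, strand setting and the handling of reads that match several genes are not given in the sources used here. Counts were scaled by TMM in edgeR 4.0.16 (R 4.3.3); size factors of DESeq2 1.42.0 and plain totals were alternatives. Lengths, positions and GC content came from GENCODE M21 on GRCm38 (46091 of 46603 genes) and promoters from RefSeq on GRCm38.p6. For variation between libraries, a chi-square statistic (2 degrees of freedom) was computed for genes having 10 counts or more per library, with a Benjamini-Hochberg threshold of 0.05, and was first checked on simulated counts. GC correction rescaled libraries within 50 bins of GC content. Other alternatives were 2 count filters, 3 gene lengths and leaving out each replicate. Python 3.11.15, scipy 1.17.1 and matplotlib 3.10.9 were used.

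The members and lists were chosen with earlier results of these data known. Named were the 10 members and, from each group of the list, the highest, the lowest and some of the genes that varied; others named for comparison (Plk2, Fas, Apaf1, Bmf, Rprm, Ptprv, Wrap53) were chosen after their values were seen. A search for response elements within 2500 bases of each start and protein stretches had been planned; a genome and proteins were not used here, so the search covered the promoter table. Intervals and floors cover counting error only. Libraries of other genotypes were not analysed here.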

Additional observations from a re-analysis of the deposited data

How the results depend on the processing

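No paired analysis was possible because the libraries form a single group. Against 10 of 10 genes varying beyond counting error, the fits without 1 replicate gave 5 to 8, beside 12.5% to 34.0% of all genes. GC correction without replicate 2, an alternative chosen after seeing the data, gave 4 (beside 11.9% of all genes). For the wider list, against 32, the fits without 1 replicate gave 13 to 24 and the same combination 10, beside the same shares of all genes. Other scalings, other count filters and GC correction alone kept both numbers within 1.5 times. The log2 ratio of Trp53 to Bax was -0.46 per kilobase and 0.90 without division by length. Its sign thus depended on that division, with merged exons of 1576 bases for Bax against 4045 for Trp53. The other 8 ratios kept their sign under every alternative tried. Promoters with a response element numbered 2 of 9 genes, 4 with 3 mismatches and 6 with a 10-base site without mismatch; the looser searches were chosen after seeing the data. Another scaling changed the mean CPM of 79 single genes by at most 0.670%. Depth limits what can be said of Trp63, Trp73, Hrk, Rprm and Ptprv.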

Other observations

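The cyclins, kinases and Pcna, proteins that p21 binds alone or in complexes, spanned a wide range of levels. Per kilobase of exon, Cdk4 averaged 176 CPM per kilobase, with libraries from 173 to 181, and Pcna 175 ± 3.18 (SD, n = 3). Cdk6, at 6.85 ± 0.382 CPM per kilobase, was the lowest of 9 such genes. Cdk4 exceeded Cdkn1a by 10.6 to 11.5-fold over the 3 libraries and Pcna exceeded it 10.9-fold ± 0.542, and with the longest transcripts these ratios were 10.2 and 10.1. Of the 9 genes, 7 varied beyond counting error, beside 43.9% of all genes, and 4 did after correction for GC content, beside 29.9%. Without replicate 2 the number was 1, Ccna2, beside 12.5%.

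Wrap53, the gene next to Trp53 that is transcribed in the opposite direction, had 24.6 ± 0.249 CPM (SD, n = 3), with 1232, 1224 and 1088 counts in replicates 1 to 3. Its adjusted p for variation between libraries was 0.916 (chi-square, Benjamini-Hochberg), whereas that of Trp53 was 0.000378. Wrap53 had fewer counts, and counting error alone would give it a coefficient of variation of 2.91%, against 0.993% for Trp53. The call of Trp53 was lost without replicate 3. The difference between these genes was not tested.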
